A study of Mus musculus with 14 samples.

Results

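To ask how the liver of an obese mouse differs after a gastric bypass, the RNA of 5 livers taken after Roux-en-Y gastric bypass (RYGB) was compared with that of 5 livers from diet-induced obese (DIO) mice that had no operation. These 10 livers were taken by their labels from a series of 14. The other 4 livers, from mice whose gallbladder had been joined to the ileum (GB-IL), were not part of the comparison. All mice were male C57BL/6, were made obese on a high-fat diet and stayed on it, and the labels place every liver at 8 weeks after RYGB or, for DIO mice, after no surgery. In RYGB, a small stomach pouch is joined directly to the small intestine, so that food bypasses most of the stomach and the duodenum and meets bile further down. No liver of a sham-operated or pair-fed mouse was among these samples, so the operation, the recovery from it and the food intake and body weight that go with it cannot be told apart.

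Each liver gave 1 library from 1 mouse. The 10 libraries held 18223135 to 28656631 reads counted to genes, with no difference in range that separated the groups (18440676 to 21473005 in DIO livers). Summed markers of hepatocytes ran from 125141 to 167837 CPM, the counts of a gene scaled to a library of 1000000 counts, and the male-specific transcripts *Ddx3y*, *Eif2s3y*, *Kdm5d* and *Uty* had 139 or more counts in each liver against 5 or fewer of *Xist*. Along the leading principal component (31.3% of the variance of all tested genes), RYGB 5 stood apart at 60.6, with the other RYGB livers at 1.96 to 19.1 and the DIO livers at -38.6 to -2.64. RYGB 5 also held 154 CPM of neutrophil markers against 5.45 to 12.6 in the other 9 livers, and 643 CPM of sinusoidal endothelial markers against 203 to 312. Its share of *Alb*, the albumin gene, was 13.1% of all counts against at most 10.3%. *Alb* alone held 131488 CPM of the 167837 CPM of hepatocyte markers in RYGB 5. The median log2 level of the 8 hepatocyte markers, relative to the DIO mean, was lowest in RYGB 5, at -0.57. It was -0.163 to 0.039 in RYGB 1 to 4 and -0.399 to 0.113 in DIO livers. Values without RYGB 5 are therefore given for many of the groups and genes on which it weighed.

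The liver makes cholesterol when its endoplasmic reticulum runs low in sterol, through the transcription factor SREBP-2. It makes fatty acids from sugar through SREBP-1c and ChREBP, and stores them as triglyceride in lipid droplets, which swell in obesity. It also sets the body's iron supply through the peptide hormone hepcidin and answers a shortage of amino acids through the factor ATF4. These programmes, with those for bile acids, foreign compounds, immunity and matrix, were followed in 38 groups of genes.

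Of 13627 genes with enough reads to be tested, 33 passed a false discovery rate of 0.05 by Benjamini-Hochberg in the quasi-likelihood test of edgeR (0.242% of the genes tested), 17 of them higher (0.125%) and 16 lower (0.117%) after RYGB. The 33 include *Asns*, which makes asparagine, *Igfbp2*, a binding protein for insulin-like growth factors, and the xenobiotic receptor gene *Ahr* among those that rose. *Hamp2* of the hepcidin family, the sugar-handling genes *Pklr* and *Pygl*, the lipogenic gene *Me1* and the interferon-induced chemokine gene *Cxcl9* were among those that fell. At an unadjusted p under 0.05 there were 1237 genes higher (9.08%) and 1091 lower (8.01%). In 254 genes (1.86%) all RYGB livers lay above all DIO livers, and in 230 (1.69%) all lay below. The 33 called genes belonged to these non-overlapping genes. The median log2 fold change over all tested genes was 0.01.

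The number of called genes rested on single livers. It was 0 without RYGB 2 (smallest edgeR adjusted p = 0.0646, 2039 genes with an unadjusted p under 0.05) and 0 without RYGB 3 (smallest edgeR adjusted p = 0.0521, 2200 genes). It was 3 without DIO 5, 8 without DIO 3, 9 without DIO 2, 15 without RYGB 4, 18 without DIO 4, 37 without RYGB 5, 97 without RYGB 1 and 128 without DIO 1. With any of the 10 livers left out, each of the 33 genes kept its direction and an unadjusted p under 0.05. Since the 33 were picked for their small p in these same livers, this is not independent support for them. On the same 10 livers DESeq2 called 532 genes (3.9%), edgeR's exact test 419 (3.07%) and limma-voom with sample quality weights 1465 (10.8%), the 33 among them in each case. The biological coefficient of variation was 0.241 within DIO livers and 0.287 within RYGB livers.

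**Figure D1:**
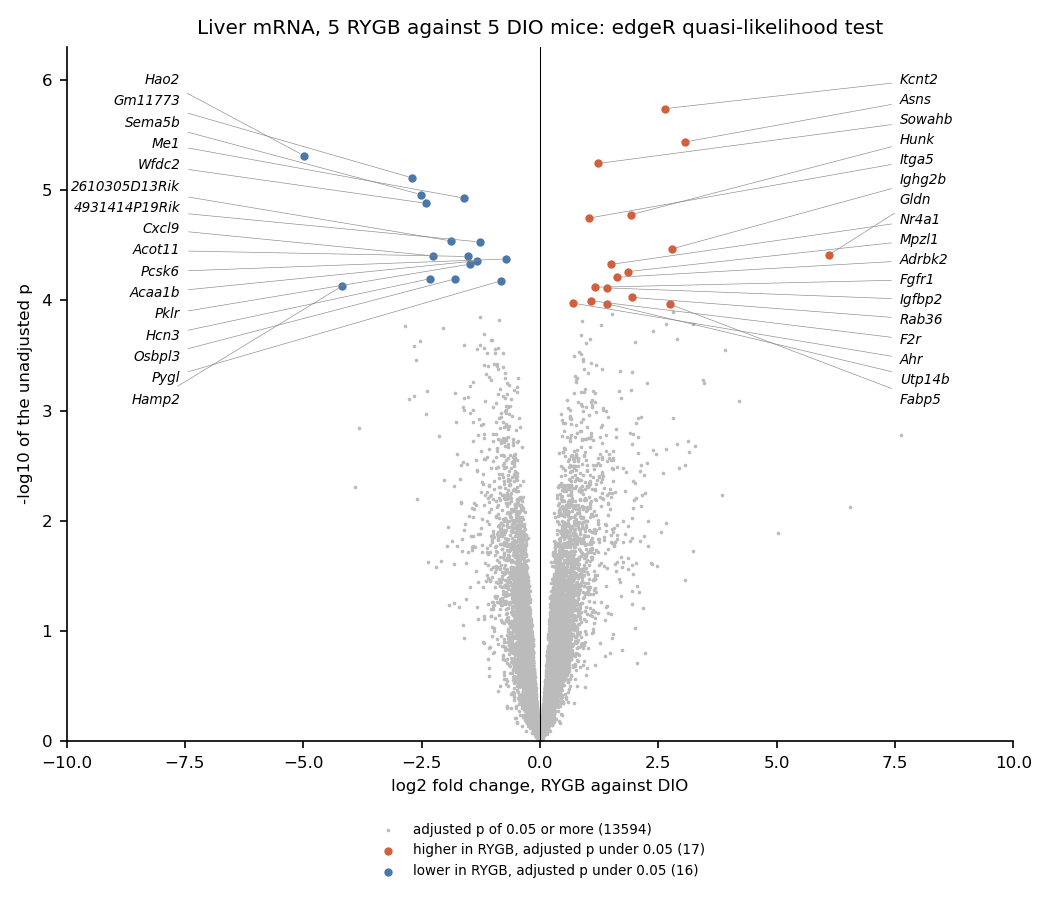
Log2 fold change (RYGB over DIO, horizontal) against -log10 of the unadjusted p of edgeR's quasi-likelihood test (vertical) for 13627 genes. The 33 genes past a false discovery rate of 0.05 are coloured and named, 17 to the right and 16 to the left; the other 13594 are grey.

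Among the genes that rose, *Asns* (ENSMUSG00000029752, chr6:7675169-7693254, mouse build GRCm38) encodes asparagine synthetase, which cells switch on through ATF4 when amino acids are scarce. Its level was 1.49, 1.698, 1.13, 1.09 and 0.4396 CPM in DIO 1 to 5 and 6.598, 14.7, 13.4, 4.49 and 9.73 CPM in RYGB 1 to 5. The lowest RYGB liver stood well above the highest DIO liver (log2 fold change 3.06, SE 0.388, edgeR adjusted p = 0.0195). The 250 bases before its start are shown because they hold the element through which amino acid shortage is known to act on this gene, TGATGAAAC, in capitals. The sequence is RefSeq's for GRCm38.p6, chr6:7693210-7693459, minus strand, 5′ to 3′.
Asns: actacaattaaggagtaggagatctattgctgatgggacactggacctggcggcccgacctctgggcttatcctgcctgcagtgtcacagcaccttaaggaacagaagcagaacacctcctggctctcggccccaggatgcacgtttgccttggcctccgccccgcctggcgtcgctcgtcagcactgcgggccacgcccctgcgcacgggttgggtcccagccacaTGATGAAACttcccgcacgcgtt
The element began 23 bases before the start. Searched on both strands from 250 bases before to 50 after the start, it occurred in 62 of 27025 promoter windows (0.229%), and in none but *Asns* among the 11 called higher that had a window. A match of letters is a description and not a binding site.

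*Kcnt2* (ENSMUSG00000052726, chr1:140246158-140612067), a subunit of a sodium-activated potassium channel, had 0.478, 0.2497, 0.155, 0.518 and 0.488 CPM in the DIO livers and 1.65, 2.06, 2.51, 2.84 and 2.73 CPM in the RYGB livers. It was a low transcript that separated the groups cleanly (log2 fold change 2.64, SE 0.315, edgeR adjusted p = 0.0195). *Fabp5* (ENSMUSG00000027533, chr3:10012548-10016607), a fatty acid-binding protein that macrophages and epithelia make, stood at 5.15, 2.197, 2.94, 4.95 and 1.76 CPM without surgery and at 14.1, 18.9, 6.98, 22.01 and 50.9 CPM after RYGB. Its spread was wide, with RYGB 5 highest and RYGB 3 close to the DIO livers (log2 fold change 2.74, SE 0.4905, edgeR adjusted p = 0.0446, and 2.19 with edgeR adjusted p = 0.0382 without RYGB 5). Summed macrophage markers ran from 499 to 877 CPM in DIO and from 534 to 1268 CPM in RYGB livers; their part in the *Fabp5* difference was not tested. In whole liver, more cells of a type and more RNA per cell cannot be told apart.

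*Ighg2b* (ENSMUSG00000076613, chr12:113302965-113307933), the constant region of immunoglobulin G2b, was counted at 1.01, 1.498, 1.03, 0.979 and 0.4396 CPM in DIO 1 to 5. In RYGB 1 to 5 it was counted at 3.46, 3.42, 8.31, 4.96 and 13.9 CPM, again without overlap (log2 fold change 2.78, SE 0.441, edgeR adjusted p = 0.0321, and 2.35 without RYGB 5). Summed B and plasma cell markers, at 2.38 to 17.8 CPM in DIO and 5.50 to 8.56 CPM in RYGB livers, overlapped between the groups. *Gldn* (ENSMUSG00000046167, chr9:54286486-54341786), which encodes gliomedin, an adhesion protein known from peripheral nerve, had a summed count of 3 in DIO and 300 in RYGB livers, a ratio of 81.6 relative to library size (exact 95% interval 27.6 to 398, for counting error only). RYGB 2 and RYGB 5 carried most of it, at 0.6598, 5.17, 0.716, 1.14 and 4.899 CPM in RYGB 1 to 5. Its edgeR adjusted p was 0.0321.

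*Nr4a1* (ENSMUSG00000023034, chr15:101254269-101274795) encodes NUR77, an orphan nuclear receptor that responds quickly to many stimuli. It stood at 1.97, 1.598, 1.96, 1.61 and 1.81 CPM in the DIO livers, which were tightly grouped, and at 2.75, 5.88, 6.23, 6.53 and 3.83 CPM in the RYGB livers, of which RYGB 1 was lowest (log2 fold change 1.49, SE 0.245, edgeR adjusted p = 0.0321). *Hunk* (ENSMUSG00000053414, chr16:90386013-90499553), a kinase related to the AMP-activated kinase family, had 1.33, 1.05, 0.979, 1.32 and 1.07 CPM against 2.42, 5.37, 3.62, 3.43 and 6.85 CPM (log2 fold change 1.92, SE 0.282, edgeR adjusted p = 0.0244). *Rab36* (ENSMUSG00000020175, chr10:75037058-75054748), a small GTPase of vesicle traffic, had 2.98, 3.795, 1.803, 2.76 and 2.003 CPM against 5.17, 16.7, 11.5, 12.6 and 5.47 CPM (log2 fold change 1.94, SE 0.343, edgeR adjusted p = 0.0442). In each of these the groups did not overlap.

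*Mpzl1* (ENSMUSG00000026566, chr1:165592240-165634538), a cell-surface glycoprotein, was at 3.56, 1.55, 2.06, 2.76 and 1.66 CPM in DIO and 4.89, 9.14, 7.48, 6.53 and 13.8 CPM in RYGB livers (log2 fold change 1.86, SE 0.309, edgeR adjusted p = 0.0355). *Adrbk2* (ENSMUSG00000042249, chr5:112910482-113015791), a kinase that desensitizes G protein-coupled receptors, was at 4.304, 3.55, 1.96, 2.59 and 2.39 CPM in DIO and 5.72, 9.14, 7.27, 14.2 and 9.37 CPM in RYGB livers (log2 fold change 1.63, SE 0.274, edgeR adjusted p = 0.0361). The lowest RYGB liver was RYGB 1 for both, and the highest DIO liver was DIO 1 for both. The other 7 genes that rose were *Igfbp2* (log2 fold change 1.42), *Utp14b* (1.41), *Sowahb* (1.23), *Fgfr1* (1.16), a receptor for fibroblast growth factors, *F2r* (1.08), the thrombin receptor, *Itga5* (1.03), a subunit of the fibronectin receptor, and *Ahr* (0.71). *Utp14b* lies inside *Acsl3* on the same strand, and reads of both can be shared.

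The largest fall was that of *Hao2* (ENSMUSG00000027870, chr3:98874521-98893239), a peroxisomal oxidase of 2-hydroxy acids. It stood at 4.62, 5.79, 10.2, 1.38 and 2.49 CPM in DIO 1 to 5 and at 0.4399, 0.1005, 0.0358, 0.127 and 0.106 CPM in RYGB 1 to 5. The gene was near the floor of detection in the RYGB livers, most of all in RYGB 3 (log2 fold change -4.99, SE 0.656, edgeR adjusted p = 0.0195). *Hamp2* (ENSMUSG00000056978, chr7:30922372-30924681), the second hepcidin gene of the mouse, is described with the iron genes. *Sema5b* (ENSMUSG00000052133, chr16:35541145-35664732), a semaphorin known from axon guidance, had 9.62, 7.64, 23.96, 5.81 and 11.1 CPM in DIO livers and 1.59, 2.26, 2.26, 2.46 and 1.597 CPM in RYGB livers (log2 fold change -2.51, SE 0.355, edgeR adjusted p = 0.0224). *Wfdc2* (ENSMUSG00000017723, chr2:164562413-164568510), a secreted protein of the whey acidic protein family, had 12.8, 8.29, 29.4, 9.27 and 11.6 CPM in DIO livers and 2.199, 2.66, 2.15, 2.54 and 3.87 CPM in RYGB livers (log2 fold change -2.40, SE 0.345, edgeR adjusted p = 0.0224). For both, DIO 3 was the highest liver, at several times the RYGB level, and the remaining DIO livers were also above each RYGB liver.

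*Me1* (ENSMUSG00000032418, chr9:86581371-86695953) encodes cytosolic malic enzyme, a source of NADPH for fatty acid synthesis. It had 414, 284, 228, 201 and 212 CPM in the DIO livers and 115, 90.1, 83.2, 91.5 and 61.2 CPM in the RYGB livers (log2 fold change -1.60, SE 0.227, edgeR adjusted p = 0.0224). *Osbpl3* (ENSMUSG00000029822, chr6:50293330-50456201), an oxysterol-binding protein, had 5.74, 5.54, 14.7, 5.64 and 9.77 CPM and 1.43, 2.51, 2.61, 2.67 and 2.59 CPM (log2 fold change -1.80, SE 0.305, edgeR adjusted p = 0.0361). *Me1* was abundant and *Osbpl3* was not, and neither overlapped between the groups. *Cxcl9* (ENSMUSG00000029417, chr5:92321347-92328079), a chemokine that interferon gamma induces and that attracts T cells, had 26.7, 27.1, 13.1, 12.3 and 15.7 CPM and 2.25, 6.03, 5.05, 4.71 and 1.67 CPM (log2 fold change -2.27, SE 0.364, edgeR adjusted p = 0.0321). Summed T and NK cell markers were at 5.49 to 9.32 CPM in DIO livers, against 2.42 to 7.66 CPM in RYGB livers; their part in the fall of *Cxcl9* was not tested.

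*Hcn3* (ENSMUSG00000028051, chr3:89146074-89160196), a cation channel gene, had 22.8, 38.6, 29.5, 45.2 and 28.6 CPM in the DIO livers and 15.2, 6.88, 3.83, 4.07 and 3.44 CPM in the RYGB livers (log2 fold change -2.31, SE 0.391, edgeR adjusted p = 0.0361). It overlaps *Pklr* on the opposite strand, and since the strand setting of the counting is not given in the sources used here, reads of the *Hcn3* and *Pklr* genes cannot be told apart where they overlap. The antisense transcript *Gm11773* (ENSMUSG00000087638, chr11:120831029-120834244), within *Ccdc57*, has the same limit. It had 0.585, 1.099, 1.75, 0.806 and 1.12 CPM and 0.10996, 0.201, 0.215, 0.1696 and 0.106 CPM (log2 fold change -2.70, SE 0.373, edgeR adjusted p = 0.0211). The protein-coding gene *2610305D13Rik* (ENSMUSG00000066000, chr4:147611937-147642513) had 1.49, 2.597, 3.14, 2.19 and 3.52 CPM and 0.825, 0.854, 0.895, 0.509 and 0.461 CPM (log2 fold change -1.87, SE 0.292, edgeR adjusted p = 0.0321). The other 6 that fell were the acyl-CoA thioesterase *Acot11* (log2 fold change -1.53), the liver pyruvate kinase *Pklr* (-1.47), the peroxisomal thiolase *Acaa1b* (-1.33), *4931414P19Rik* (-1.27), the glycogen phosphorylase *Pygl* (-0.82) and the proprotein convertase *Pcsk6* (-0.72).

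**Figure D2:**
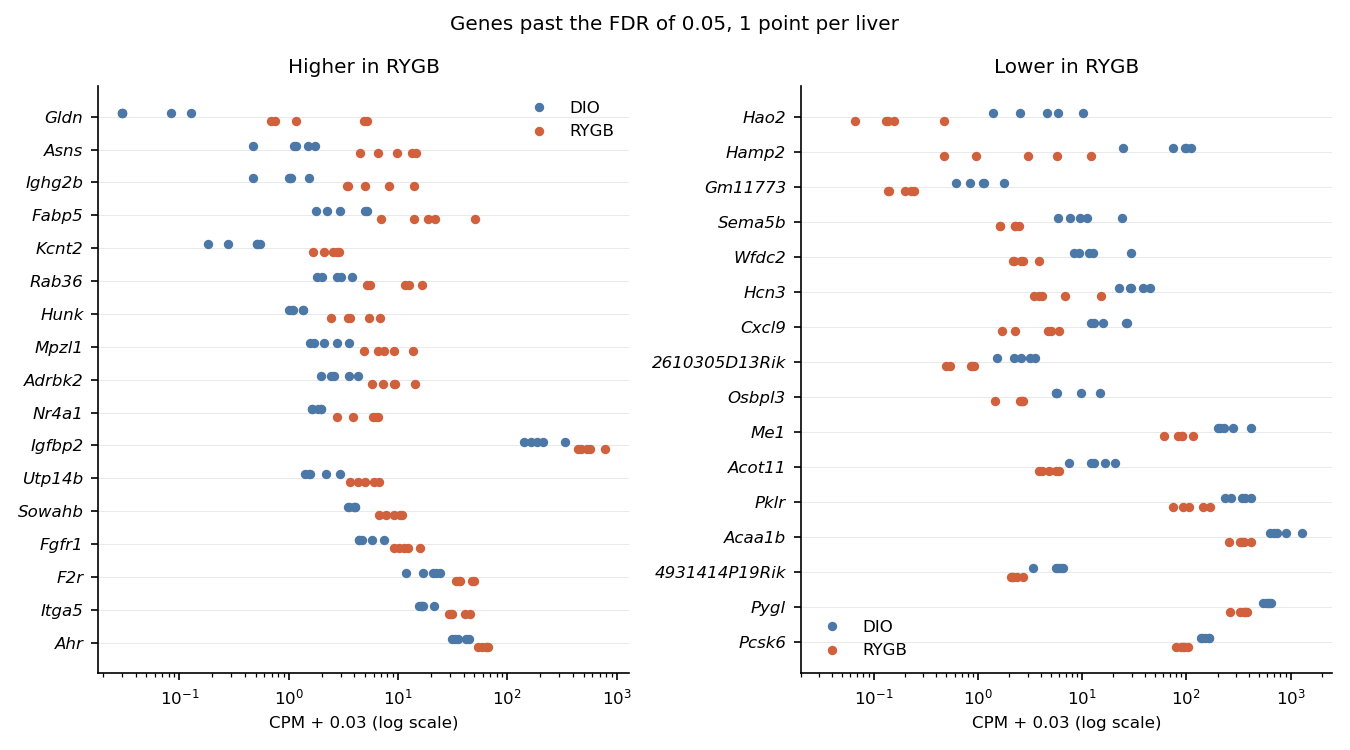
CPM plus 0.03 on a log axis for the 33 genes past a false discovery rate of 0.05, 1 point per liver, DIO and RYGB in separate colours. In every gene all 5 RYGB livers lie on one side of all 5 DIO livers.

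In the 38 groups of genes, 566 different genes were tested, of which 11 are among the 33 called genes. The 28 groups without a called gene held 413 of the tested genes. That the quasi-likelihood test of edgeR called 0 of these 413 follows from how these groups were picked. At its unadjusted p under 0.05, 69 of the 413 were higher and 62 lower. DESeq2 called 29 of them higher and 17 lower, the exact test 28 and 12, and limma-voom 47 and 46. Of all tested genes these 3 tools called 3.9%, 3.07% and 10.8% in either direction. Groups are described by how many members passed an unadjusted p under 0.05, beside 9.08% (higher) and 8.01% (lower) of all tested genes. A median is the middle log2 fold change over the tested members.

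The enzymes of cholesterol synthesis were higher in most RYGB livers, without passing the adjusted threshold. In the mevalonate arm, which leads from acetyl-CoA to farnesyl pyrophosphate, 9 of 9 enzymes had a log2 fold change above 0, and 6 had an unadjusted p under 0.05, with a median of 1.43. From squalene to cholesterol, 12 of 13 were above 0 and 9 had an unadjusted p under 0.05, with a median of 1.11. None of these 22 enzymes passed edgeR's quasi-likelihood test after adjustment. DESeq2 called 3 enzymes of the mevalonate arm and 4 of the later steps, all higher, edgeR's exact test 3 and 5, and limma-voom 6 and 10. No enzyme separated the groups fully.

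*Sqle*, which oxidizes squalene, stood at 87.9, 22.5, 9.996, 25.2 and 18.8 CPM in DIO 1 to 5 and at 178, 206, 136, 78.5 and 42.7 CPM in RYGB 1 to 5 (log2 fold change 1.96, SE 0.564, edgeR adjusted p = 0.138). RYGB 1 to 3 were high, RYGB 4 and 5 lower, and DIO 1 was the highest of the DIO livers. *Idi1*, the isomerase of isopentenyl pyrophosphate, showed a like split, with 207, 87.4, 37.7, 68.3 and 56.9 CPM against 459.8, 615, 465, 231 and 56.9 CPM (log2 fold change 2.00, SE 0.577, edgeR adjusted p = 0.1405). The log2 fold change of *Idi1* was 2.28 without RYGB 5 (edgeR adjusted p = 0.0639). *Hmgcs1*, which makes HMG-CoA, had 581, 143, 95.1, 62.1 and 66.4 CPM against 843, 1284, 952, 424 and 156 CPM (log2 fold change 1.95, SE 0.684, edgeR adjusted p = 0.194). Without RYGB 5 the medians were 1.65 for the mevalonate arm, with 7 of 9 at an unadjusted p under 0.05, and 1.38 for the later steps, with 11 of 13 (6.52% of all tested genes were higher at that p without this liver).

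The promoters of *Hmgcs1* and *Idi1* are shown because these enzymes were among those with the largest differences in the pathway. The sequences are the 250 bases before the start from RefSeq, GRCm38.p6, chr13:119690101-119690350 and chr13:8885356-8885605, both on the plus strand, 5′ to 3′. Capitals mark the core of the sterol regulatory element, TCACNCCAC, to which SREBP-2 binds, and the CCAAT box, read here on the other strand as ATTGG, to which the factor NF-Y binds.
Hmgcs1: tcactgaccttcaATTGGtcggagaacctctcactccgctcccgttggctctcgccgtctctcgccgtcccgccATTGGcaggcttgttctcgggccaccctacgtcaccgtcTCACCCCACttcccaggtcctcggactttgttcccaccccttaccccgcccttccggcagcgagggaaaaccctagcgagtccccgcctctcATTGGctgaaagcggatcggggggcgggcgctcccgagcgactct
Idi1: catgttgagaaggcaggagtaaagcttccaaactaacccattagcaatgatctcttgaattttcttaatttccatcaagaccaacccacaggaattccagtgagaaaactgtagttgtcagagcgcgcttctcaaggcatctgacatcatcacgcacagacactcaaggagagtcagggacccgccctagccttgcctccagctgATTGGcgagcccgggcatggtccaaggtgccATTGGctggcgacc
The element TCACNCCAC began 137 bases before the start of *Hmgcs1* and occurred in no other of the 16 enzymes that had a window (6.25% against 1.436% of 27025 windows). A CCAAT box occurred in 15 of the 16 (93.75% against 41.058% of all windows), the exception being *Acat2*. In *Idi1* it occurred 45 and 14 bases before the start, and in *Hmgcs1* 237, 176 and 45 bases before it. The E-box CACGTG, searched likewise, was in 3 of the 16 (18.75% against 8.093% of all windows). Among the 9676 windows of tested genes the shares were 1.447% for TCACNCCAC, 43.055% for the CCAAT box and 11.709% for the E-box. These are matches on both strands from 250 bases before to 50 after the start, with no overlap between the motifs, and a window without a match says nothing of the factor.

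**Figure D3:**
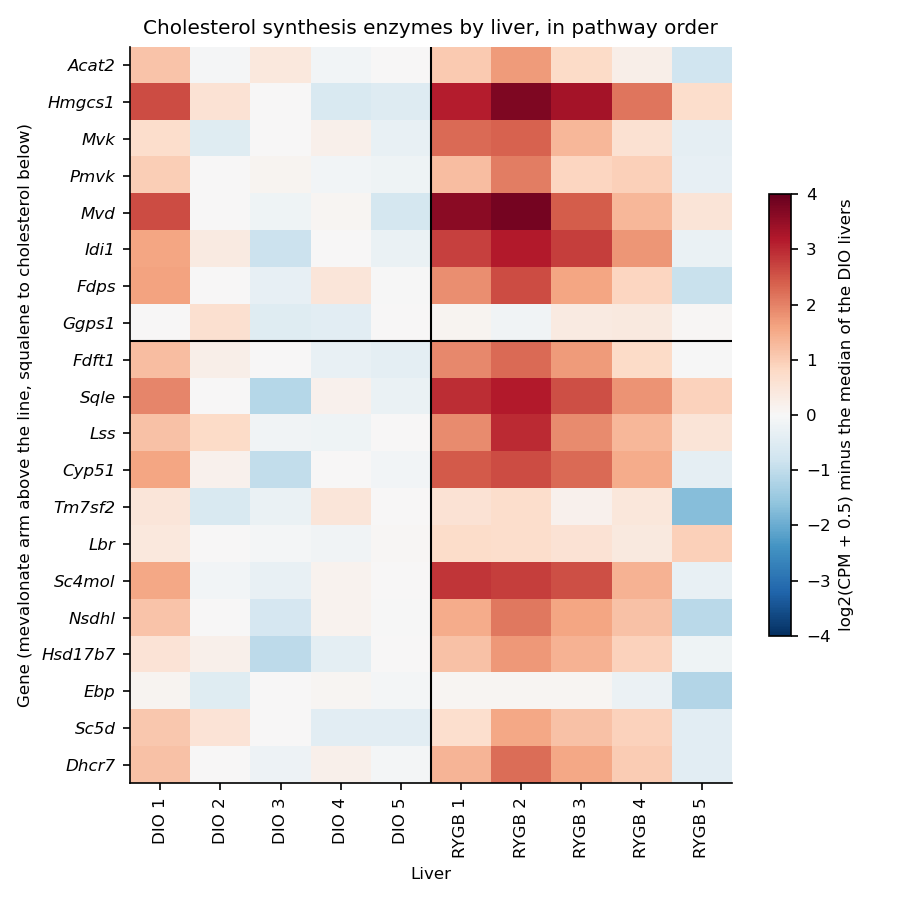
Level of 20 cholesterol synthesis enzymes (rows, in pathway order) in the 10 livers (columns) as log2(CPM + 0.5) minus the median of the DIO livers. RYGB 1 to 3 are high in most rows, RYGB 5 lies within or under the range of the DIO livers except for *Lbr*, and DIO 1 is the highest DIO liver in most rows.

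The genes that sense sterol followed in part. *Srebf2*, which encodes SREBP-2, was at 53.99, 40.7, 35.6, 49.4 and 49.4 CPM in DIO and at 110.5, 95.1, 76.5, 59.96 and 46.998 CPM in RYGB livers (log2 fold change 0.76, SE 0.218, edgeR adjusted p = 0.137). RYGB 5 lay within the DIO range for *Srebf2*. *Insig1*, which holds SREBP in the endoplasmic reticulum, had a log2 fold change of 0.84 ± 0.439 (SE, edgeR adjusted p = 0.3401). Of 12 genes in this group 4 had an unadjusted p under 0.05, all above 0, with a median of 0.35 (0.43 without RYGB 5, with 6). Targets of the oxysterol receptor LXR had a median of -0.02, with 2 of 10 above 0 at that p, *Scarb1*, the HDL receptor gene (log2 fold change 0.44 ± 0.133, SE), which did not overlap between groups, and *Abcg1* (0.71 ± 0.243, SE, and 0.45 without RYGB 5).

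Genes of fatty acid synthesis did not follow those of cholesterol synthesis. Of 12 lipogenic genes, 11 had a log2 fold change below 0, 3 had an unadjusted p under 0.05 and the median was -0.35 (-0.16 without RYGB 5, with 3). *Me1* and *Pklr* fell, and *Thrsp*, a lipogenic gene that answers to carbohydrate and thyroid hormone, had 152, 249, 601, 717 and 501 CPM against 119, 126, 39.5, 38.7 and 27.4 CPM (log2 fold change -2.67, SE 0.527, edgeR adjusted p = 0.0625). These 3 genes separated all RYGB from all DIO livers. The core enzymes of the pathway did not. *Fasn*, fatty acid synthase, had 412 ± 169 CPM in DIO and 411 ± 273 CPM in RYGB livers (SD, n = 5 each), a difference smaller than its SE of 0.397 on the log2 scale. *Acaca*, acetyl-CoA carboxylase, was at 119 ± 23.5 CPM against 99.8 ± 24.3 CPM, and *Srebf1* at 233 ± 109 CPM against 231 ± 74.8 CPM (SD, n = 5 each). *Scd1*, the main desaturase, had 10776, 4688, 6465, 1835 and 1682 CPM in DIO and 326, 3580.4, 1668, 3649 and 2004 CPM in RYGB livers (log2 fold change -1.18, SE 0.616, edgeR adjusted p = 0.341), with DIO 1 highest and RYGB 1 lowest. Of the 8 elongases and desaturases, 2 were above 0 at an unadjusted p under 0.05, *Scd2* (log2 fold change 1.32, SE 0.373, edgeR adjusted p = 0.133), high in RYGB 5 and with a log2 fold change of 0.74 without it, and *Fads3* (log2 fold change 1.44, SE 0.344, edgeR adjusted p = 0.0924), which was high in RYGB 2 to 4 and had edgeR adjusted p = 0.0382 without RYGB 5.

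Genes of triglyceride synthesis and lipid droplets had median log2 fold changes below 0, with 3 of the 5 RYGB livers under each DIO liver in the middle level of either group. Of 13 genes of triglyceride synthesis, 12 had a log2 fold change below 0 and 4 an unadjusted p under 0.05, with a median of -0.27. They were *Mogat1* (-2.02 ± 0.582, SE), which acylates monoacylglycerol and is known to be high in fatty liver, *Lpin1* (-1.60 ± 0.545, SE), *Agpat6* (-0.92 ± 0.245, SE) and *Dgat2* (-0.64 ± 0.204, SE), which makes triglyceride. Of 15 lipid droplet genes and their PPAR-gamma targets, 6 were below 0 and 1 above 0 at an unadjusted p under 0.05, with a median of -0.55. *Cidec*, which fuses lipid droplets, was at 7.599, 4.59, 23.03, 11.4 and 12.1 CPM in DIO 1 to 5. It was at 3.08, 2.46, 3.33, 2.88 and 13.5 CPM in RYGB 1 to 5, with 4 RYGB livers under each DIO liver and RYGB 5 inside the DIO range (log2 fold change -1.20, SE 0.523, edgeR adjusted p = 0.271). Without RYGB 5 its log2 fold change was -1.99 (edgeR adjusted p = 0.0639). *Fitm1*, a droplet protein, had a log2 fold change of -1.24 ± 0.367 (SE) and *Plin5*, which coats droplets, one of -1.05 ± 0.389 (SE), while *Plin2* had -0.22 ± 0.283 (SE), *Cd36* -0.42 ± 0.384 (SE) and *Pparg* 0.09 ± 0.288 (SE). The member above 0 was *Fabp4*, with 38.98, 25.97, 12.8, 12.2 and 154 CPM in RYGB 1 to 5 against 10.6 ± 2.03 CPM (SD, n = 5) in DIO livers. Most of that difference lay in RYGB 5, and the log2 fold change was 2.20 with it and 1.08 without it.

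Among 20 genes of fat oxidation and ketone production under PPAR-alpha, 6 were below 0 and 1 above 0 at an unadjusted p under 0.05, with a median of -0.26. *Acaa1b* had 912, 692, 1299, 742 and 634 CPM in DIO and 357, 422, 343, 329 and 256 CPM in RYGB livers, and fell (log2 fold change -1.33, SE 0.215, edgeR adjusted p = 0.0321). *Cpt2*, which rebuilds fatty acyl-CoA inside mitochondria, had a log2 fold change of -0.56 ± 0.177 (SE). *Cpt1a*, which admits fatty acids to mitochondria, had -0.10 ± 0.204 (SE), *Ppara* itself -0.20 ± 0.3501 (SE) and *Fgf21*, a hormone made under PPAR-alpha, 0.42 ± 0.418 (SE). The member above 0, *Pdk4*, which holds back pyruvate oxidation, had 14.03, 4.59, 3.25, 3.74 and 5.32 CPM in DIO and 4.12, 11.5, 10.6, 7.29 and 92.9 CPM in RYGB livers (log2 fold change 2.04, SE 0.791, edgeR adjusted p = 0.2305). RYGB 5 was far above all other livers, and RYGB 1 to 4 lay within the DIO range. Without RYGB 5 its log2 fold change was 0.44, and no member of the group was above 0 at an unadjusted p under 0.05. Of the 8 fatty acid hydroxylases of the Cyp4 family, which share much of their sequence, 1 was above 0 and 1 below at an unadjusted p under 0.05. *Cyp4a31* was at 1.51 ± 0.406 (log2 fold change and SE, and 1.14 without RYGB 5), with 31.3 and 37.6 CPM in RYGB 1 and RYGB 5. It had 8.44 to 11.3 CPM in RYGB 2 to 4 against 4.79 to 8.98 CPM in DIO livers. *Cyp4f15* was at -0.40 ± 0.168 (log2 fold change and SE), and at -0.30 without RYGB 5, no longer at that p.

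On the axis of lipoprotein lipase, 2 of 12 genes were above 0 and 4 below 0 at an unadjusted p under 0.05, with a median of -0.04 (-0.23 without RYGB 5). *Lpl* was at 18.4, 22.1, 25.1, 10.02 and 8.89 CPM in DIO and at 37.7, 41.3, 29.9, 26.5 and 88.4 CPM in RYGB livers, with no overlap (log2 fold change 1.41, SE 0.368, edgeR adjusted p = 0.117). RYGB 5 was far above the others, and without it the log2 fold change was 1.00 (edgeR adjusted p = 0.168). Also above 0 at that p was *Gm6484*, which encodes ANGPTL8, an inhibitor of the enzyme (log2 fold change 1.14 ± 0.386, SE), with 3 RYGB livers above each DIO liver. Below 0 were *Angptl4*, an inhibitor of the enzyme (log2 fold change -1.11 ± 0.406, SE), *Apoa5*, an activator (-0.77 ± 0.196, SE), *Apoc3*, an inhibitor (-0.65 ± 0.198, SE), and *Lmf1*, which matures the enzyme (-0.36 ± 0.164, SE, and -0.27 without RYGB 5, no longer at that p).

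Genes of glycolysis, fructose use and glycogen lay lower after RYGB, while the glucose production genes *Pck1* and *G6pc* did not differ beyond the spread between livers. Of 15 genes of glucose handling, 13 had a log2 fold change below 0, 8 of them at an unadjusted p under 0.05, and the median was -0.41. The middle level of the group was lower in each RYGB liver (-0.596 to -0.364 on the log2 scale against the DIO mean) than in each DIO liver (-0.349 to 0.24). *Pygl*, which releases glucose from glycogen in the liver, fell from 545, 579, 625, 646 and 610.3 CPM in DIO 1 to 5 to 328, 357, 369, 386 and 264 CPM in RYGB 1 to 5 (log2 fold change -0.82, SE 0.139, edgeR adjusted p = 0.0361). *Pklr*, the last step of glycolysis, fell from 236, 419.5, 267, 364 and 339 CPM to 168, 146, 92.2, 106 and 73.8 CPM (log2 fold change -1.47, SE 0.241, edgeR adjusted p = 0.0321). In both, RYGB 5 was the lowest liver and the groups were apart. *Khk*, the first step of fructose use, was at 510.2, 418, 924, 728 and 699 CPM in DIO and 367, 311, 212, 249 and 216 CPM in RYGB livers (log2 fold change -1.28, SE 0.235, edgeR adjusted p = 0.05304), without overlap and just outside the threshold. *Gys2*, liver glycogen synthase, had a log2 fold change of -0.86 ± 0.252 (SE). *Pck1*, the controlled step of glucose production, was at 2434 ± 739 CPM in DIO against 2898 ± 824 CPM in RYGB livers, and *G6pc*, which frees glucose, at 303 ± 142 CPM against 337 ± 141 CPM (SD, n = 5 each). Their log2 fold changes were 0.25 ± 0.255 and 0.16 ± 0.343 (SE). Other genes of glucose production had an unadjusted p under 0.05 and lay lower. *Fbp1*, fructose-1,6-bisphosphatase, had -0.46 ± 0.164 (SE), with 3 RYGB livers under each DIO liver. *Slc37a4*, which carries glucose 6-phosphate into the endoplasmic reticulum, was at 160.4, 188, 272, 441 and 388 CPM in DIO and 200.2, 92.5, 121, 116 and 143 CPM in RYGB livers (log2 fold change -1.11, SE 0.295, edgeR adjusted p = 0.119), with 4 RYGB livers under each DIO liver.

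On the insulin and insulin-like growth factor axis, *Igfbp2* (ENSMUSG00000039323, chr1:72824503-72852474) rose from 142, 210.5, 166, 341 and 187 CPM in DIO 1 to 5 to 788, 571, 469, 447 and 534 CPM in RYGB 1 to 5 (log2 fold change 1.42, SE 0.246, edgeR adjusted p = 0.0375). Even the highest DIO liver, DIO 4, was under the lowest RYGB liver. *Igfbp1*, which insulin represses, was at 110.4, 11.7, 21.02, 80.8 and 93.9 CPM and 114, 51.2, 226, 126 and 449 CPM (log2 fold change 1.60, SE 0.648, edgeR adjusted p = 0.246, and 1.02 without RYGB 5). The insulin receptor substrates *Irs1* (0.83 ± 0.334, SE) and *Irs2* (0.80 ± 0.344, SE) and the kinase-like *Trib3* (0.80 ± 0.269, SE) were the other members above 0 at an unadjusted p under 0.05. Altogether 5 of 15 were above 0 at that p and none below, with a median of 0.14 (0.05 without RYGB 5, with 4).

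**Figure D4:**
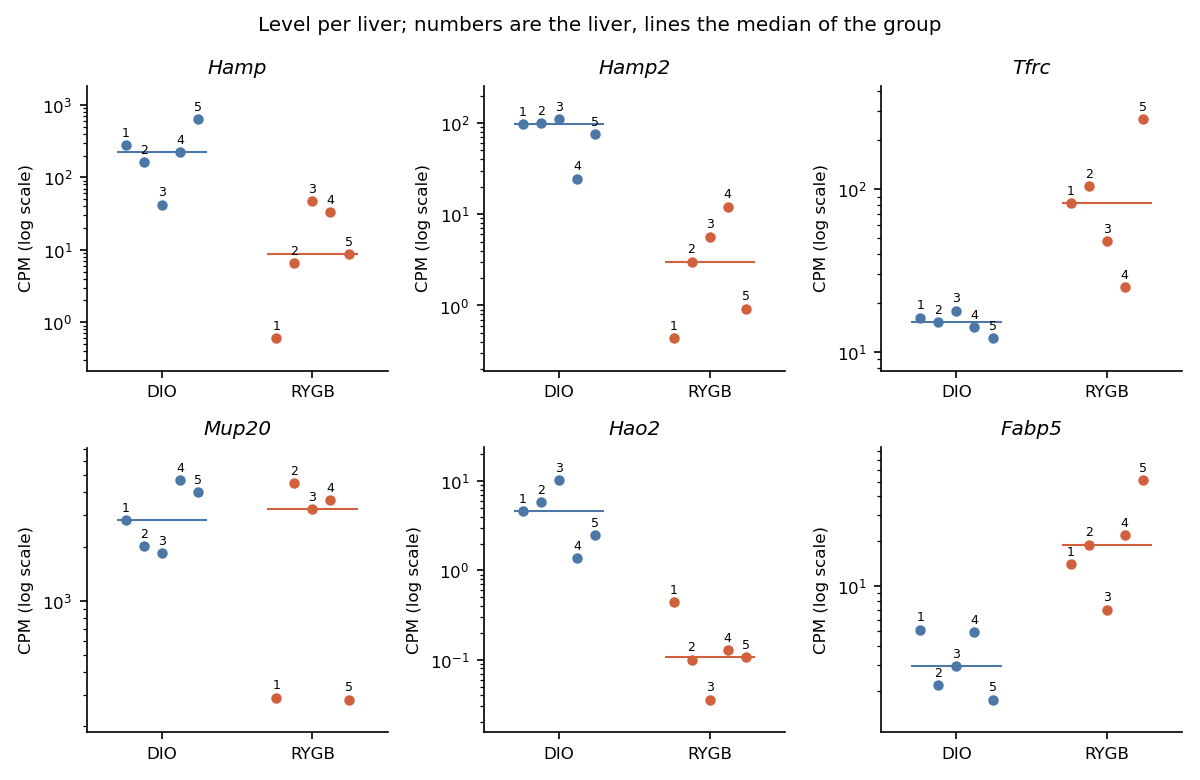
CPM on a log axis for *Hamp*, *Hamp2*, *Tfrc*, *Mup20*, *Hao2* and *Fabp5*, 1 number per liver and a line at the median of each group. The hepcidin genes and *Tfrc* lie in opposite directions after RYGB, and *Mup20* is low in RYGB 1 and RYGB 5 alone.

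The genes of iron supply held some of the widest differences. *Hamp2* had 96.6, 99.2, 111, 24.6 and 74.9 CPM in DIO 1 to 5 and 0.4399, 3.01, 5.69, 12.1 and 0.923 CPM in RYGB 1 to 5 (log2 fold change -4.18, SE 0.719, edgeR adjusted p = 0.0375). All RYGB livers were under all DIO livers, RYGB 1 and RYGB 5 the most. *Hamp*, which encodes hepcidin, the hormone that blocks iron export from gut and macrophages, had 281, 162, 42.05, 221 and 642 CPM in DIO and 0.605, 6.58, 46.5, 32.9 and 8.77 CPM in RYGB livers (log2 fold change -3.82, SE 0.933, edgeR adjusted p = 0.0981). There the RYGB 3 liver was just above DIO 3. The hepcidin genes are near-identical copies, and the sharing of reads between them is uncertain. *Tfrc*, the transferrin receptor that takes up iron and whose RNA iron-poor cells keep, was at 16.3, 15.2, 17.9, 14.2 and 12.2 CPM in DIO and 82.1, 105, 47.9, 24.98 and 269.8 CPM in RYGB livers. The groups did not overlap and RYGB 5 was highest (log2 fold change 2.81, SE 0.512, edgeR adjusted p = 0.0511, and 2.10 with edgeR adjusted p = 0.0382 without RYGB 5). *Slc11a2*, an iron importer whose RNA is also held in iron-poor cells, had 35.7, 34.1, 25.7, 23.1 and 24.9 CPM and 41.95, 56.8, 44.6, 41.9 and 84.9 CPM, again apart (log2 fold change 0.91, SE 0.213, edgeR adjusted p = 0.0892). *Hpx*, the haem carrier of plasma, had a log2 fold change of 1.05 ± 0.305 (SE), *Trf*, transferrin, 0.70 ± 0.308 (SE, and 0.40 without RYGB 5), and *Cp*, which oxidizes iron, 0.62 ± 0.212 (SE). The ferritin genes *Fth1* (-0.24 ± 0.205, SE) and *Ftl1* (-0.39 ± 0.265, SE), the hepcidin inducer *Bmp6* (-0.57 ± 0.291, SE) and its target *Id1* (-0.21 ± 0.349, SE) had an unadjusted p over 0.05. Of 18 genes 6 were above 0 and 2 below at an unadjusted p under 0.05, and 4 and 3 without RYGB 5. Erythroid markers summed to 247 to 2441 CPM in DIO and 117 to 2065 CPM in RYGB livers; their part in the iron genes was not tested.

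Of 21 genes of amino acid breakdown and the urea cycle, *Asns*, which is synthetic, rose, and 6 were below 0 at an unadjusted p under 0.05 (4 without RYGB 5), with a median of -0.19. These 6 included *Sds*, serine dehydratase (log2 fold change -0.83 ± 0.324, SE), the alanine aminotransferases *Gpt* (-0.64 ± 0.245, SE) and *Gpt2* (-0.61 ± 0.2495, SE), and *Gls2*, liver glutaminase, which did not overlap (367, 401, 493, 394 and 453 CPM in DIO and 319, 210.3, 347, 311 and 185 CPM in RYGB livers, log2 fold change -0.62, SE 0.1899, edgeR adjusted p = 0.153). *Cps1*, the entry to the urea cycle, had 0.26 ± 0.254 (SE). Among 16 genes of the unfolded protein and integrated stress responses, *Atf4* had 96.9, 59.8, 60.6, 70.2 and 66.9 CPM in DIO and 137, 138, 102, 75.2 and 106 CPM in RYGB livers (log2 fold change 0.66, SE 0.191, edgeR adjusted p = 0.142). *Atf3*, which ATF4 induces, had 0.957, 1.15, 1.03, 0.403 and 0.684 CPM and 2.75, 2.31, 2.26, 1.19 and 9.23 CPM, without overlap (log2 fold change 2.07, SE 0.521, edgeR adjusted p = 0.105, and 1.31 without RYGB 5). Other genes of the same responses pointed the other way, *Chac1*, also an ATF4 target, with -1.03 ± 0.326 (SE) and *Herpud1*, of protein disposal in the endoplasmic reticulum, with -0.93 ± 0.231 (SE). *Ddit3* had 0.07 ± 0.329 (SE) and the chaperone *Hspa5* 0.16 ± 0.404 (SE).

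The genes of bile acid synthesis differed little between the groups. *Cyp7a1*, the rate-limiting enzyme, had 57.8, 165, 91.4, 235 and 172 CPM in DIO 1 to 5 and 434, 236, 129.7, 40.5 and 119.9 CPM in RYGB 1 to 5 (log2 fold change 0.41, SE 0.527, edgeR adjusted p = 0.709). RYGB 1 was the highest and RYGB 4 the lowest of all 10, so the RYGB livers spanned the DIO range. *Cyp8b1*, which directs synthesis to cholic acid, had a log2 fold change of 0.26 ± 0.424 (SE). Of 13 genes 1 was below 0 at an unadjusted p under 0.05, *Hsd17b4*, a peroxisomal step (-0.52 ± 0.1398, SE), and the median was -0.14 (-0.02 without RYGB 5, with 2 above 0 and 1 below at that p). *Abcb11*, the bile salt export pump, had 0.06 ± 0.293 (SE), and *Abcc3*, a pump on the blood side, -0.50 ± 0.308 (SE). Of 11 bile transporters, *Atp8b1* (0.62 ± 0.181, SE) and *Slco1a4* (0.96 ± 0.363, SE) were above 0 at an unadjusted p under 0.05. *Slco1a4*, an uptake carrier, was at 42.6, 55.6, 46.2, 22.9 and 30.1 CPM in DIO and 119.97, 45.8, 37.6, 51.9 and 128 CPM in RYGB livers, high in RYGB 1 and RYGB 5 alone, and without RYGB 5 its log2 fold change was 0.69, no longer at that p. *Nr1h4*, which encodes the bile acid receptor FXR, had 133 ± 26.8 CPM in DIO against 99.9 ± 12.7 CPM in RYGB livers (SD, n = 5 each, log2 fold change -0.41 ± 0.1599, SE). *Nr0b2*, which encodes SHP and is an FXR target, had 49.7, 7.24, 24.1, 14.05 and 17.8 CPM and 32.3, 18.8, 62.5, 50.4 and 18.5 CPM, with overlap (log2 fold change 0.70, SE 0.473, edgeR adjusted p = 0.457).

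Of 18 receptors and cytochromes that handle foreign compounds, *Ahr* (ENSMUSG00000019256, chr12:35497974-35535038) rose from 42.2, 35.5, 31.5, 33.6 and 45.04 CPM in DIO to 64.8, 66.4, 63.7, 58.2 and 53.6 CPM in RYGB livers (log2 fold change 0.71, SE 0.126, edgeR adjusted p = 0.0446). *Cyp2b10*, the main target of the receptor CAR, had 0.903, 0.949, 3.401, 4.49 and 21.5 CPM in DIO and 0.05498, 0.0502, 0.0358, 0 and 1.74 CPM in RYGB livers. Of these, 4 RYGB livers were close to 0 and RYGB 5 was not (log2 fold change -3.92, SE 1.15, edgeR adjusted p = 0.143, and -7.31 with edgeR adjusted p = 0.05697 without RYGB 5). *Nr1i2*, which encodes the receptor PXR, had -0.43 ± 0.183 (SE). The enzymes of conjugation were lower as a group in RYGB 2 to 5. Their middle level was -1.518 to -0.346 in these livers, lowest in RYGB 5, and -0.202 to 0.196 in DIO livers. RYGB 1, at -0.066, lay within the DIO range. Of 18 tested, 9 were below 0 and none above 0 at an unadjusted p under 0.05, with a median of -0.52. All but *Sult1d1* (-0.60 ± 0.234, SE) and *Ugt2b36* (-0.59 ± 0.2099, SE) were glutathione transferases, led by *Gsta1* (5.21, 1.15, 4.64, 0.864 and 1.76 CPM in DIO and 0.385, 0.703, 0.537, 0.382 and 0.213 CPM in RYGB livers, log2 fold change -2.62, SE 0.539, edgeR adjusted p = 0.0689) and *Gsta4* (45.7, 54.1, 74.9, 55.7 and 55.2 CPM and 42.7, 28.5, 39.9, 25.2 and 31.2 CPM, log2 fold change -0.77, SE 0.173, edgeR adjusted p = 0.0848). Both were without overlap, though close homologues of these transferases can share reads. Without RYGB 5 the median was -0.36, with 8 of the group below 0 at that p (6.65% of all tested genes). The 12 genes of the oxidative stress factor Nrf2 had a median of 0.01, with 0 at an unadjusted p under 0.05 in edgeR's test and 0 called by DESeq2, the exact test and limma-voom.

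The RYGB group split on genes that differ between male and female liver. *Cux2*, a female-specific liver transcription factor, chosen after its values were seen, had 459 and 779 counts in RYGB 1 and RYGB 5, 6 to 11 in RYGB 2 to 4 and 4 to 21 in the DIO livers. The middle level of 11 female-biased genes was 1.072 and 1.241 in RYGB 1 and RYGB 5 and -1.903 to -1.803 in RYGB 2 to 4 on the log2 scale, against -0.359 to 0.444 in DIO livers. That of 18 male-biased genes was -1.828 and -1.262 in RYGB 1 and RYGB 5 and 0.895 to 1.09 in RYGB 2 to 4, against -0.991 to 0.793 in DIO livers. *Mup20*, a male-biased urinary protein gene, stood at 2800.3, 2007, 1846, 4671 and 4006 CPM in DIO 1 to 5 and at 288, 4502, 3220.1, 3618 and 282 CPM in RYGB 1 to 5, and *Elovl3* at 15.4, 426, 647, 250.5 and 53.7 CPM in RYGB 1 to 5. In these middle levels RYGB 1 and RYGB 5 were thus the low ones for male-biased and the high ones for female-biased genes. By their male-specific transcripts all 10 livers were male. Not every member followed. *Hao2*, which is on the female-biased list, was at 0.4399 CPM in RYGB 1 and 0.106 CPM in RYGB 5, under each DIO liver. Of the 11 female-biased genes, 1 was above 0 and 2 below 0 at an unadjusted p under 0.05 in edgeR's test, *Hao2* among the latter. The median of the female-biased genes was 0.63, and -0.40 without RYGB 5. Of the 18 male-biased genes, 0 had an unadjusted p under 0.05 in edgeR's test, and DESeq2, the exact test and limma-voom each called 0. Without RYGB 5, 2 male-biased genes were above 0 at that p in edgeR's test. *Fmo5*, a flavin monooxygenase, had 586, 820.2, 952, 1329 and 1529.95 CPM and 426, 560.2, 565, 451 and 1172 CPM (log2 fold change -0.72, SE 0.3204, edgeR adjusted p = 0.281, and -1.06 without RYGB 5). The 5 flavin monooxygenases had a median of 0.18, and of -0.52 without RYGB 5.

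Immune genes differed in both directions. Of 27 interferon-stimulated genes, 24 had a log2 fold change below 0 and 10 an unadjusted p under 0.05, with a median of -0.41 (-0.30 without RYGB 5, with 5 at that p). Their middle level was under each DIO liver in RYGB 5 alone, and RYGB 1 to 4 lay within the DIO range. By limma-voom the median was -0.115 and 0 were called, against 2 lower by DESeq2 and 1 by the exact test. *Igtp*, a GTPase that interferon gamma induces, had 78.8, 66.3, 50.8, 30.6 and 34.8 CPM in DIO and 42.8, 25.1, 23.3, 17.3 and 15.4 CPM in RYGB livers (log2 fold change -1.08, SE 0.313, edgeR adjusted p = 0.142). *Gbp6* (-1.44 ± 0.454, SE) and *Gbp2* (-0.76 ± 0.271, SE) pointed the same way. The chemokines *Cxcl10* (-1.09 ± 0.429997, SE) and *Ccl5* (-0.94 ± 0.349, SE) were lower beside *Cxcl9*, and *Ccl2*, which attracts monocytes, was at 0.691, 0.549, 0.618, 0.288 and 0.537 CPM and 2.47, 0.553, 2.61, 1.44 and 0.674 CPM (log2 fold change 1.51, SE 0.454, edgeR adjusted p = 0.148). *Cxcl14* (1.98 ± 0.607, SE, and 1.30 without RYGB 5), *Cxcl13* (1.36 ± 0.5103, SE, and 0.89 without it), *Cx3cr1* (1.22 ± 0.408, SE) and *Cxcl12* (0.45 ± 0.164, SE) were the other chemokine genes above 0 at an unadjusted p under 0.05, 5 of 19 tested. Genes that present antigen on MHC class II, which interferon gamma also induces, had a median of -0.59, with 3 of 10 below 0 at that p, *H2-Eb1* (-0.71 ± 0.255, SE), *H2-Aa* (-0.70 ± 0.249, SE) and *Cd74* (-0.60 ± 0.248, SE, and -0.48 without RYGB 5, no longer at that p). Their level was lowest in RYGB 5.

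Acute phase genes went both ways. Of 20, 5 were above 0 and 4 below 0 at an unadjusted p under 0.05, with a median of 0.25. *Lcn2*, which binds bacterial iron carriers, was at 33.8, 9.34, 56.7, 17.6 and 58.9 CPM in DIO 1 to 5 and at 343, 72.4, 45.2, 17.6 and 326 CPM in RYGB 1 to 5 (log2 fold change 2.19, SE 0.763, edgeR adjusted p = 0.191). RYGB 1 and RYGB 5 were high, and RYGB 3 and RYGB 4 were within the DIO range. *Itih3* had 1422, 914, 1152, 899 and 1099.9 CPM in DIO and 1513, 2106, 1857, 1556 and 2926 CPM in RYGB livers, apart (log2 fold change 0.86, SE 0.212, edgeR adjusted p = 0.102), and *Saa4* 409.5, 408, 591, 823 and 1051 CPM and 285, 299, 360.2, 343 and 156 CPM, apart in the other direction (log2 fold change -1.19, SE 0.299, edgeR adjusted p = 0.105). *Saa1* and its near copies overlapped between the groups or may share reads (*Saa1* -0.81 ± 0.508, SE). *Saa2* had a log2 fold change of -1.31 (edgeR unadjusted p = 0.0359, and -1.61 without RYGB 5). That of *Saa3* was -0.76 (edgeR unadjusted p = 0.0121, and -0.80 without RYGB 5). Among 23 complement genes, those above 0 at an unadjusted p under 0.05 included *Masp1* (0.77 ± 0.296, SE, and 0.62 without RYGB 5, no longer at that p) and *C3* (0.54 ± 0.183, SE), and those below 0 were *C8g* (-0.69 ± 0.231, SE) and *Cfd* (-2.09 ± 0.8098, SE). Of 22 coagulation genes, the protein S gene *Pros1* had 63.5, 63.9, 51.8, 47.96 and 49.04 CPM in DIO and 81.8, 76.0004, 93.7, 86.4 and 114 CPM in RYGB livers, without overlap (log2 fold change 0.71, SE 0.144, edgeR adjusted p = 0.0649). *Tfpi* (0.84 ± 0.207, SE) and *F11* (0.74 ± 0.2501, SE) were also above 0.

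Matrix genes were higher as a group, though not in every RYGB liver. The middle level of the group was above each DIO liver in 3 RYGB livers, most in RYGB 5 (1.257). RYGB 1 (0.234) and RYGB 3 (0.183) lay under DIO 1 (0.313). Of 26 tested, 25 had a log2 fold change above 0, 18 of them at an unadjusted p under 0.05, and the median was 0.69. Without RYGB 5, 13 had an unadjusted p under 0.05 and the median was 0.52. DESeq2 and the exact test each called 6 of the 26, and limma-voom 8, all higher, against 0 for edgeR's quasi-likelihood test. *Mmp14*, a membrane-bound protease of the matrix, was at 31.4, 24.3, 25.3, 32.99 and 31.3 CPM in DIO and 54.05, 43.6, 41.96, 47.4 and 91.2 CPM in RYGB livers, with no overlap (log2 fold change 0.94, SE 0.208, edgeR adjusted p = 0.0822, and 0.69 without RYGB 5). *Col4a2*, of basement membrane, was at 23.4, 14.3, 15.5, 23.2 and 18.8 CPM in DIO and 37.8, 29.03, 27.9, 30.9 and 73.3 CPM in RYGB livers, with no overlap (log2 fold change 1.06, SE 0.268, edgeR adjusted p = 0.105). The main fibrillar collagen gene *Col1a1* did overlap, with 6.27, 2.05, 9.48, 5.47 and 4.25 CPM and 5.55, 9.09, 4.94, 14.7 and 25.9 CPM (log2 fold change 1.13, SE 0.476, edgeR adjusted p = 0.259, and 0.64 without RYGB 5). RYGB 5 was the highest liver in each, followed by RYGB 4 for *Col1a1*. Summed stellate cell markers ran from 83.1 to 110 CPM in DIO and from 121 to 150 CPM in RYGB livers, without overlap. *Reln* alone held 33.0 to 60.0 CPM of this sum in DIO and 61.0 to 91.6 CPM in RYGB livers. Of the 8 stellate markers, 5 were above 0 and 3 below. Their middle level was above each DIO liver in 3 RYGB livers. Cholangiocyte markers summed to 32.2 to 64.5 CPM in DIO and 58.2 to 69.96 CPM in RYGB livers, most of it *Spp1*, which is also counted below with the macrophage genes. The part of these cells in the matrix genes was not tested. *Fn1*, fibronectin, had 0.58 ± 0.206 (SE, and 0.37 without RYGB 5), and its receptor subunit *Itga5* rose from 21.4, 15.6, 16.2, 16.4 and 16.9 CPM to 29.2, 45.7, 31.1, 30.3 and 40.7 CPM (log2 fold change 1.03, SE 0.153, edgeR adjusted p = 0.0244).

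Of 13 genes of the lipid-associated macrophage, a state described in fatty tissue, 7 were above 0 at an unadjusted p under 0.05 and none below, with a median of 0.57 (0.31 without RYGB 5, with 6). Beside *Fabp5* and *Lpl* these were *Cd63* (1.75 ± 0.6799, SE, and 0.31 without RYGB 5, no longer at that p), *Atp6v0d2* (1.39 ± 0.465, SE), *Cd9* (1.04 ± 0.356, SE, and 0.61 without it), *Mmp12* (0.77 ± 0.214, SE) and *Spp1* (0.45 ± 0.184, SE). *Trem2*, the receptor that names the state, had -0.04 ± 0.332 (SE). The hypoxia group rested on RYGB 5. Of 11 genes 5 were above 0 at an unadjusted p under 0.05, with a median of 0.69, and without RYGB 5 there was 1 above and 2 below, with a median of -0.14. *Slc2a1*, the glucose transporter GLUT1, was at 12.8, 11.4, 10.6, 11.2 and 40.2 CPM in RYGB 1 to 5 against 8.77, 6.64, 7.83, 12.1 and 8.597 CPM in DIO 1 to 5. Its log2 fold change was 0.98, and 0.39 without RYGB 5.

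Genes of the circadian clock went both ways. *Npas2*, a partner of BMAL1, was at 2.498, 0.1997, 0, 0.173 and 0.147 CPM in DIO and 0.275, 2.81, 6.19, 1.95 and 1.42 CPM in RYGB livers (log2 fold change 2.08, SE 0.935, edgeR adjusted p = 0.281). *Dbp*, an output gene with a steep daily rhythm, spanned 9.67, 96.4, 112, 78.01 and 51.5 CPM in DIO and 97.6, 14.3, 2.76, 34.6 and 13.6 CPM in RYGB livers (log2 fold change -1.10, SE 0.774, edgeR adjusted p = 0.472). DIO 1 was low and RYGB 1 high for *Dbp*, against the rest of their groups. Of 18 clock genes, 4 were below 0 and 1 above at an unadjusted p under 0.05. The hour at which each liver was taken is not given in the labels, and its part was not tested. *Per1* had -0.23 ± 0.414 (SE).

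Few nuclear genes of the respiratory chain passed an unadjusted p under 0.05, though all pointed one way. All 24 had a log2 fold change below 0, between -0.50 and -0.08, 4 of them at an unadjusted p under 0.05, with a median of -0.26 (-0.19 without RYGB 5, with 1). *Sdhb* had 206 ± 40.1 CPM in DIO and 145 ± 34.4 CPM in RYGB livers (SD, n = 5 each), the largest difference of the group. In the middle level of the group RYGB 1 to 3 lay within the DIO range and RYGB 4 and RYGB 5 under it. Over all tested genes 6619 of 13627 were below 0. Of 21 cell cycle genes, 4 were below 0 at an unadjusted p under 0.05, among them *Cdk1*, at 2.02, 1.65, 2.11, 1.84 and 1.95 CPM in DIO and 1.59, 0.753, 0.967, 1.19 and 1.14 CPM in RYGB livers, without overlap (log2 fold change -0.77, SE 0.221, edgeR adjusted p = 0.138), and *Pcna* (-0.30 ± 0.106, SE). Of 15 genes of apoptosis, *Bid* was below 0 at that p (log2 fold change -0.54, SE 0.149, edgeR adjusted p = 0.127), and *Bcl2* had 0.62 ± 0.285 (SE).

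Of the members of the 38 groups, 30 had too few counts to be fitted and were set against each other by an exact permutation test over the livers, taken two-sided, for which the smallest possible p is 0.00794. *Plat*, tissue plasminogen activator (24 counts in all DIO and 82 in all RYGB livers, exact p = 0.0159), *Lox*, which crosslinks collagen (13 and 82, exact p = 0.0317), *Ccr1* (14 and 32, exact p = 0.0317) and *Cyp3a16* (0 and 5, exact p = 0.0476) were under 0.05. None held after Benjamini-Hochberg adjustment over the 30 (exact permutation adjusted p = 0.3175 for each of the 4).

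**Figure D5:**
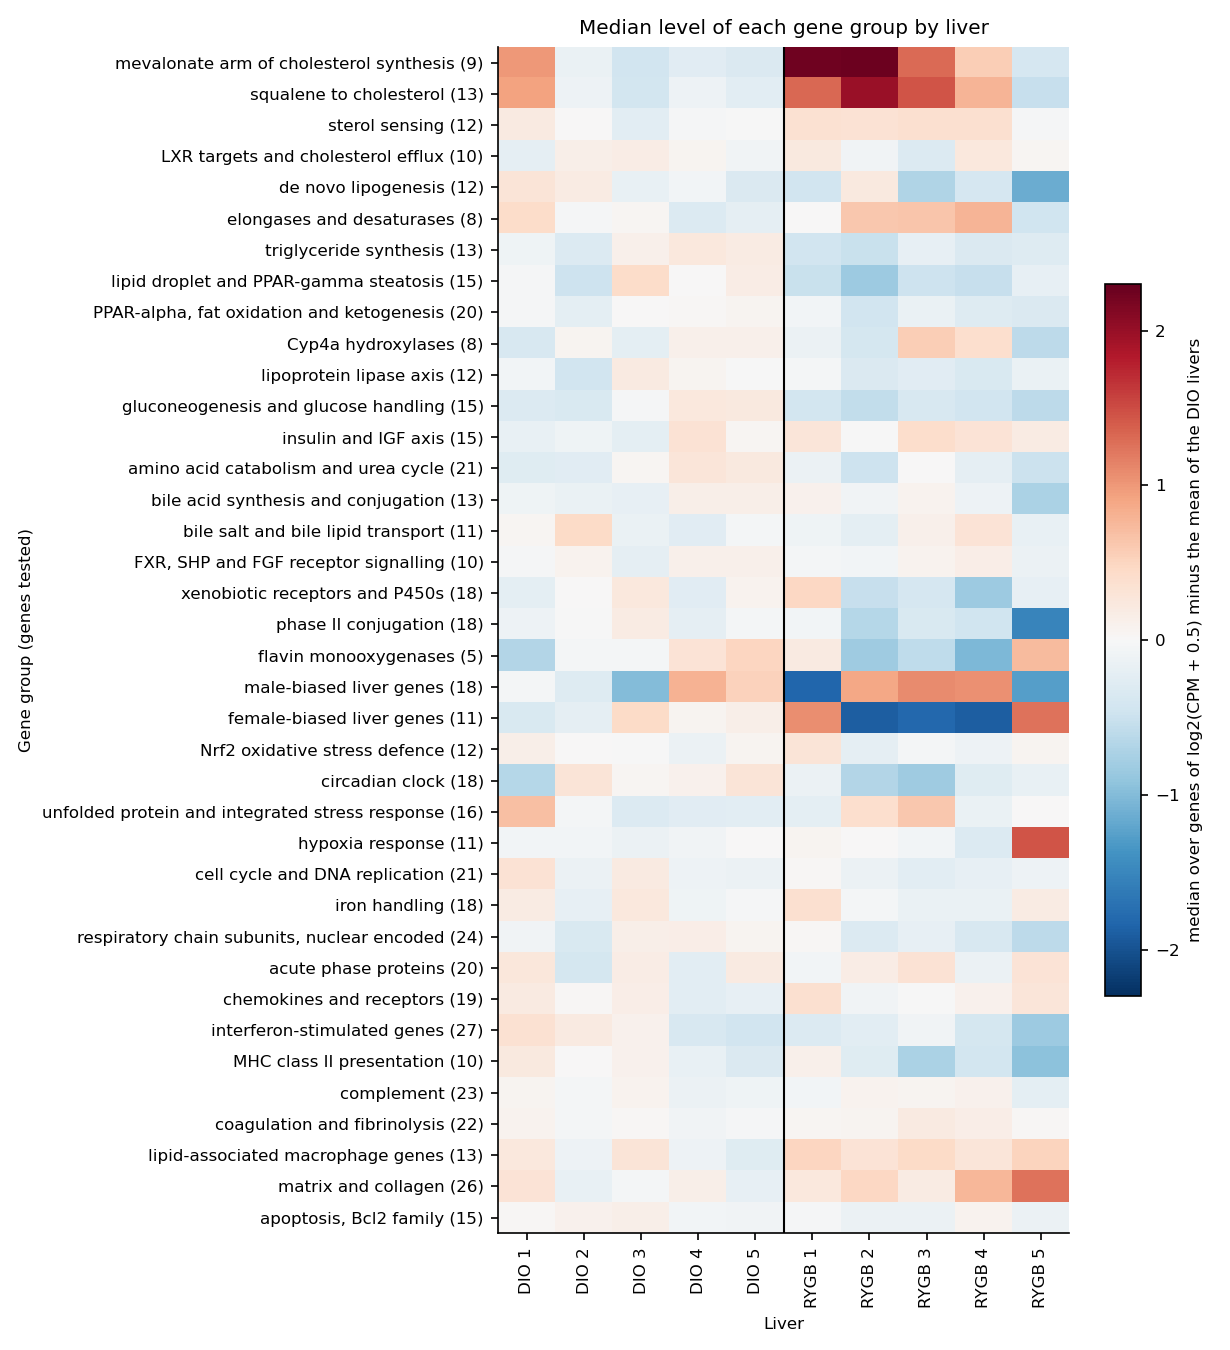
Median over the tested genes of each of 38 groups (rows, with the number of genes) of log2(CPM + 0.5) minus the mean of the DIO livers, by liver (columns). RYGB 1 and RYGB 5 differ from RYGB 2 to 4 in the male-biased and female-biased groups, and RYGB 5 stands alone for hypoxia.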

How the data were processed

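Liver RNA of 5 DIO and 5 RYGB mice was analysed from the deposited read counts, 1 column per liver. The authors amplified the RNA, sequenced it (HiSeq), used TopHat 2 to align to mm10 and HTSeq to count reads per gene, so the count, a whole number without normalization, is the unit of each column. Neither the HTSeq version nor the annotation and strand setting used for counting is given in the sources used here. In the labels stand a stranded mRNA and a stranded total RNA kit, neither tied to a liver, so the kit could not enter a model. A list drawn up as RNAs without a poly(A) tail summed to 124 to 196 CPM in DIO and 117 to 139 CPM in RYGB livers. Nearly all of this sum came from the histone genes *Hist1h1c* and *Hist1h2bc*, so it does not show which kit a liver had. *Rn7sk* of that list was at 0.312 to 1.57 CPM in DIO and 0.736 to 1.72 CPM in RYGB livers.

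The table lists 25212 genes, of which 1689 had no count in the 10 livers, and 24701 identifiers matched GENCODE M21, the source of the coordinates. After edgeR's filterByExpr (by group) and TMM scaling, the groups were compared by edgeR's quasi-likelihood test (edgeR 4.0.16, limma 3.58.1 and R 4.3.3) with Benjamini-Hochberg adjustment over the 13627 genes kept. The SE of a log2 fold change is its size over the root of the F statistic. CPM of single genes used TMM-scaled library sizes, and sums of markers the unscaled totals. CPM are not per length and were not compared between genes. Also run were DESeq2 1.42.0, the exact test of edgeR, limma-voom with sample quality weights, upper quartile and RLE scaling, robust estimation, other filters, all 14 livers in the fit, the replicate number as a block, and leaving out each liver. Tables, permutation tests and figures used matplotlib 3.10.9, scipy 1.17.1, pandas 2.3.3 and numpy 2.4.6 under Python 3.11.15. The tests were checked on simulated data. Intervals cover counting error only, and the p-values set a difference between the groups against the spread between these livers.

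The comparison, the 38 gene groups and the marker lists were chosen with earlier results of these data known, so no group was tested as a set. Named with values per liver were the called genes with the 10 largest rises and 10 largest falls and a mean of at least 1 CPM in a group, then the 2 members of each group with the smallest p, and a list of rate-limiting steps and regulators. Other members named in the text were chosen after their values were seen. Some genes that the rule names, and some rows of the cholesterol plot, are not reported here. The marker sums of pancreatic (7.85 to 37.3 CPM), intestinal (72.8 to 222 CPM), muscle (0.693 to 3.4 CPM), mesothelial (1.92 to 9.69 CPM) and monocyte genes (13.1 to 39.9 CPM) were inspected, as were mitochondrial RNAs (55781 to 92229 CPM) and adipocyte genes (254 to 2973 CPM, nearly all *Car3*). Promoter windows were RefSeq's, with 1 or more for 16 of 22 cholesterol enzymes, 11 of 17 genes called higher and 13 of 16 called lower.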

Additional observations from a re-analysis of the deposited data

Results flagged for a closer look

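For each of 119 named genes, the DIO and the RYGB livers were searched as separate groups of 5 livers. Of these 238 groups, 26 (10.92%) held a liver far from the other 4. The cut used is set to flag about 5% of groups of independent, normally distributed values. These were CPM without log transformation, the groups shared the same livers, and many of the genes were named for their results. The 5% is therefore not a chance rate for these groups, and no excess of outlying livers is concluded. Of the 26 cases, 12 lay in RYGB 5 and 8 in DIO 1. RYGB 5 was high for *Mmp14* (91.2 CPM), *Tfpi* (14.8 CPM), *Atf3* (9.23 CPM), *Lpl* (88.4 CPM), *Fabp4* (154 CPM), *Scd2* (27.5 CPM), *Cyp2b10* (1.74 CPM), *Slc2a1* (40.2 CPM), *Ankrd37* (13.1 CPM), *Cidec* (13.5 CPM), *Fmo5* (1172 CPM) and *Pparg* (18.7 CPM). Neutrophil and sinusoidal endothelial markers were also high in that liver, and their part was not tested.

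DIO 1 was high for *Itga5* (21.4 CPM), *Lbr* (10.8 CPM), *Col5a2* (3.77 CPM), *Sqle* (87.9 CPM), *H2-Aa* (66.4 CPM), *Insig1* (450.5 CPM) and *Fgf21* (10.1 CPM) and low for *4931414P19Rik* (3.35 CPM). RYGB 1 was high for *Hao2* (0.4399 CPM) and *Ndufv1* (175 CPM) and low for *Osbpl3* (1.43 CPM). The remaining cases were *Wfdc2* in DIO 3 (29.4 CPM), *Trib3* in DIO 4 (10.6 CPM) and *Cyp2b10* in DIO 5 (21.5 CPM), each high.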

How the results depend on the processing

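The number of genes past the threshold depended on the tool more than on the scaling. Against 17 higher and 16 lower, DESeq2 gave 279 and 253, limma-voom with sample quality weights 722 and 743, edgeR's exact test 239 and 180, and no filter on low counts 47 and 35. With all 14 livers in the fit edgeR called 0 and 0 (smallest adjusted p = 0.218, 1241 genes with an unadjusted p under 0.05, among them 30 of the 33). Leaving out 1 liver at a time gave 0 to 53 higher and 0 to 75 lower. RLE (15 and 16), upper quartile scaling (17 and 16), robust estimation (16 and 14) and a mean of at least 50 counts (12 and 13) stayed within 1.5 times. All 33 called genes kept their sign under each alternative in which they were tested, and no other named value that was called in an alternative changed its sign. Of the genes with too few counts, 4 were under 0.05, 1 to 6 with 1 liver left out, and 5 with unscaled totals, a setting added after the data were seen.

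The replicate numbers do not pair the livers. Same-numbered DIO and RYGB livers deviated from their group means with correlations of -0.147, -0.05, -0.248, -0.0119 and 0.0191 for numbers 1 to 5, and with the replicate number as a block edgeR called 6 genes higher and 13 lower, 10 of these 19 also called without it.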
